A study of Mus musculus with 1073 samples.

Results

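The bone morphogenetic protein (BMP) genes described here were 10 of the 15967 genes in the filtered table, chosen by name. They were the ligand genes *Bmp2*, *Bmp4*, *Bmp5* and *Bmp7*, the secreted modulator *Bmper*, the inhibitory Smad genes *Smad6* and *Smad7*, and the inhibitor of differentiation genes *Id1*, *Id2* and *Id3*. The question was which yolk sac populations held the ligands and which held the genes known to respond to them.

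BMPs are secreted dimers that bind pairs of type I and type II receptor kinases, which phosphorylate SMAD1, SMAD5 and SMAD9. These enter the nucleus with SMAD4 and switch on targets that include the *Id* genes, whose products block basic helix-loop-helix transcription factors, and *Smad6* and *Smad7*, whose products feed back on the receptors. In the gastrulating mouse embryo, BMP4 is known to be required for extraembryonic mesoderm and for the first blood of the yolk sac.

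The data were single-cell transcriptomes of mouse yolk sac cells sorted by surface phenotype and captured on microfluidic chips, in 13 populations between E7.25 and E10.5. Of 1073 captured cells 926 were retained, each with between 483830 and 5943204 counted reads (median 1887347.5). E7.25 (73 and 74 cells per lane) and E7.75 (53 and 87 cells per lane) mesoderm came from *Flk1*-GFP/+ embryos, in which green fluorescent protein is driven from the *Flk1* (*Kdr*) locus. It was sorted as GFP+ after trypsin and sequenced in 2 lanes per stage. The labels name lanes and not chips, and a chip below stands for the cells of 1 population in 1 sequencing lane. The stage label of the earlier mesoderm is E7.25, although the cell names in its titles carry E7.5. Likewise the E8.25 progenitors are labelled E8.25, although the cell names in their titles carry E8.5. The *Flk1*-GFP line was kept on a C57BL/6 background. All later populations came from C57BL/6 embryos after collagenase and dispase, with 1 chip in this sense each. The E10.5 primitive erythrocytes and macrophages shared a lane.

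The later populations were haematopoietic progenitor cells (HPC, titled erythro-myeloid progenitors in the labels) at E8.25 (73 cells), E8.5 (89 cells), E9.5 (46 cells) and E10.5 (87 cells), and primitive erythrocytes (EryP) at E8.5 (66 cells) and E10.5 (3 cells). Megakaryocytes (Mk) were taken at E8.5 (37 cells) and E10.5 (73 cells), macrophages (Mac) at E10.5 (25 cells), and endothelium (Endo) at E8.5 (79 cells) and E10.5 (61 cells). HPC were gated as CDH5+ at E8.25 and E8.5 but as CDH5- CD45+ at E9.5 and E10.5, and *Cdh5* was found in 93.2% and 93.3% of the former and in 41.3% and 41.4% of the latter. *Kdr* was found in 95.2% of E7.25 and 72.1% of E7.75 GFP+ cells, and both *Kdr* and *Cdh5* were found in every Endo cell. The E8.5 Mk cells stood apart from their label, since embryonic globin *Hba-x* was found in 100% of them at a mean of 6463 CPM (a depth-scaled read count), against 2.74% at E10.5. The platelet gene *Pf4* averaged 163.3 CPM in them against 4902 CPM at E10.5.

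Levels below are means over cells of the deposited CPM, and a cell was called positive at 1 count or more. Shares were not matched for depth unless called thinned. Median counts per cell ran from 1555237 in E8.5 HPC to 3536330 in E8.5 Mk, with 3082737.5 in E9.5 HPC and 3422342 in Mac. No embryo or pool was named for a cell, so each population counted as 1 sample. Differences between populations are therefore given as values without a test, and the 95% exact (Clopper-Pearson) intervals of shares cover counting error only. Where no cell was positive, the limit given is the share that 3 positive cells would make. Folds given as at least place 3 counts over all cells of the population without counts. They bound the counting of reads in the captured cells, and do not allow for positive cells that the sampling missed. The libraries of E7.25, E8.25 and E8.5 shared a flow cell and those of E7.75, E9.5 and E10.5 shared a different one. Stage and flow cell cannot be told apart where a comparison crosses them. In each gene's ranking of the populations, the middle 50% of cells overlapped between every pair of neighbours.

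*Bmp4* (chromosome 14, 46383520 to 46390669, minus strand, GRCm38) was found in nearly all mesodermal cells. Its mean was 96.8 CPM at E7.25, where the cells ranged from 0 to 604.0 with a median of 65.9, and 112.3 CPM at E7.75, where they ranged from 0 to 1128 with a median of 63.2. The share of positive cells was 89.8% (83.7 to 94.2) at E7.25 and 92.1% (86.4 to 96.0) at E7.75. The separate chips gave 78.6 and 114.8 CPM at E7.25 and 90.9 and 125.4 CPM at E7.75, so the stages overlapped between chips.

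The next highest means of *Bmp4* were in endothelium and megakaryocytes. E8.5 Endo averaged 43.4 CPM with a median of 15.3 and 86.1% (76.5 to 92.8) positive cells, and E10.5 Endo averaged 28.0 CPM with a median of 0 and 44.3% positive cells. E8.5 Mk averaged 31.8 CPM (48.6% positive) and E10.5 Mk 28.8 CPM (28.8% positive). With cells thinned to the same count, *Bmp4* was found in 35.1% of 37 E8.5 Mk and 25.4% of 67 E10.5 Mk cells. It was then found in 82.3% of 79 E8.5 Endo and 33.3% of 57 E10.5 Endo cells. A single cell with 1524 CPM gave 57.7% of the *Bmp4* counts of E10.5 Mk, and the mean without it, an alternative chosen after seeing the data, was 8.06 CPM. Most cells of both Mk populations and of E10.5 Endo had no *Bmp4* count, and their means rested on the minority that did.

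*Bmp4* was lower or undetected in the other blood populations. E8.25 HPC averaged 2.57 CPM (24.7% positive) and E8.5 HPC 9.54 CPM (31.5% positive), with a median of 0 in both. E10.5 HPC had *Bmp4* in 3 of 87 cells, with 18 counts in all. No count was found in 46 E9.5 HPC, which allows a share of up to 6.52%, in 66 E8.5 EryP, which allows up to 4.55%, or in 25 Mac, which allows up to 12%. Against the floor of 3 counts over the E9.5 HPC, E7.75 mesoderm was at least 4890-fold higher in the captured cells.

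The *Bmp4*-positive Mk cells were examined for markers of other cell types, because both populations are blood cells. At E10.5 the summed level of 5 endothelial markers had a median of 120.4 CPM (range 8.98 to 2434) in 21 positive cells and 126.2 CPM (range 0.294 to 581.1) in 52 negative cells. The sum of 5 megakaryocyte markers was 7366 CPM in the positive and 5079 CPM in the negative cells at the median. At E8.5 the sum of 5 primitive erythroid markers had a median of 21658 CPM in 18 positive and 34803 CPM in 19 negative cells, with ranges of 41.4 to 92292 and 317.0 to 76073. The E10.5 positive cells thus held megakaryocyte markers. Their erythroid sum had a median of 51.1 CPM, against 2.85 CPM in the E10.5 negative cells, with overlapping ranges. At E8.5 the megakaryocyte sum had a median of 368.8 CPM in the positive and 164.4 CPM in the negative cells, again with overlapping ranges. The erythroid markers were present at E8.5 with and without *Bmp4*, and their part in the E8.5 Mk value was not tested.

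*Bmp2* (chromosome 2, 133552159 to 133562885, plus strand), which encodes a close relative of BMP4, had a wider distribution. It averaged 30.5 CPM at E7.25 (range 0 to 285.2, median 18.9, 81.0% positive) and 34.8 CPM at E7.75 (range 0 to 487.2, median 14.2, 80.0% positive). Next came E10.5 Endo with 22.9 CPM (47.5% positive), E8.5 Endo with 20.7 CPM (51.9%), E8.25 HPC with 17.8 CPM (60.3%), E8.5 Mk with 13.4 CPM (54.1%) and E8.5 HPC with 13.2 CPM (60.7%). In the early HPC, unlike *Bmp4*, *Bmp2* was found in the majority of cells. Of 89 E8.5 HPC, 54 had *Bmp2* and 28 had *Bmp4*, and 17 had both.

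*Bmp2* was low in the later blood populations. It was found in 13.0% of E9.5 HPC (mean 1.76 CPM), 4.60% of E10.5 HPC (1.08 CPM) and 9.09% of E8.5 EryP (1.27 CPM). No count was found in E10.5 Mk, which allows a share of up to 4.11%, or in Mac. HPC that were CDH5+ by gate and HPC that were CDH5- differed in gate, stage and, for E9.5 and E10.5, flow cell, and these cannot be told apart.

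*Bmp5* and *Bmp7*, which encode ligands of a second BMP subgroup, were found almost entirely in mesoderm. *Bmp5* (chromosome 9, 75775364 to 75900310, plus strand) averaged 28.6 CPM at E7.25 (median 1.29, highest cell 280.4, 59.2% positive) and 45.3 CPM at E7.75 (median 1.63, highest cell 472.1, 60.7% positive). The only other positive cells were 2 of 79 E8.5 Endo, of which 1 cell gave 99.8% of the counts. In the 10 remaining populations *Bmp5* had no count, and E7.75 mesoderm was at least 1970-fold to 2509-fold higher than each of the 4 HPC populations.

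*Bmp7* (chromosome 2, 172868012 to 172940321, minus strand) averaged 12.3 CPM at E7.25 (median 1.05, highest cell 177.4, 56.5% positive) and 24.8 CPM at E7.75 (median 1.38, highest cell 381.9, 64.3% positive). E10.5 Endo averaged 17.8 CPM, but 3 of 61 cells were positive and 1 of them, at 1075 CPM, gave 99.9% of the counts. The *Bmp7*-positive E10.5 Endo cells had endothelial marker sums of 3188 to 23419 CPM and mesenchymal marker sums below 5 CPM. Outside mesoderm and E10.5 Endo, *Bmp7* amounted to 18 counts in E8.25 HPC, 5 in E8.5 Endo and 1 in E10.5 Mk.

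*Bmper* (chromosome 9, 23223076 to 23485200, plus strand) encodes a secreted protein of the crossveinless type that binds BMPs outside the cell. It was the member whose level separated the mesodermal stages. At E7.25 it averaged 41.7 CPM (range 0 to 536.1, median 4.32) with 66.0% (57.7 to 73.6) positive cells, and at E7.75 it averaged 0.506 CPM (highest cell 18.6) with 5.71% (2.50 to 10.9) positive cells. The chips gave 35.0 and 48.3 CPM at E7.25 and 0.0549 and 0.781 CPM at E7.75 and did not overlap. Genotype, sorting gate and enzyme were the same at both stages, but the flow cells differed.

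Later *Bmper* counts were rare. E8.5 HPC had 5 positive cells of 89, of which 1 gave 98.7% of the counts. E10.5 Endo had 2 positive cells of 61, of which 1, at 413.2 CPM, gave 99.9%. The *Bmper*-positive E10.5 Endo cells spanned endothelial marker sums of 73.4 to 8723 CPM and mesenchymal marker sums of 0 to 6441 CPM, whereas the highest mesenchymal sum among the 59 negative cells was 798.1 CPM. E8.5 Endo had no *Bmper* count in 79 cells, so a share of up to 3.80% was allowed. E8.25 HPC had 3 *Bmper* counts in 1 cell, and the other 7 later populations had none.

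**Figure D1:**
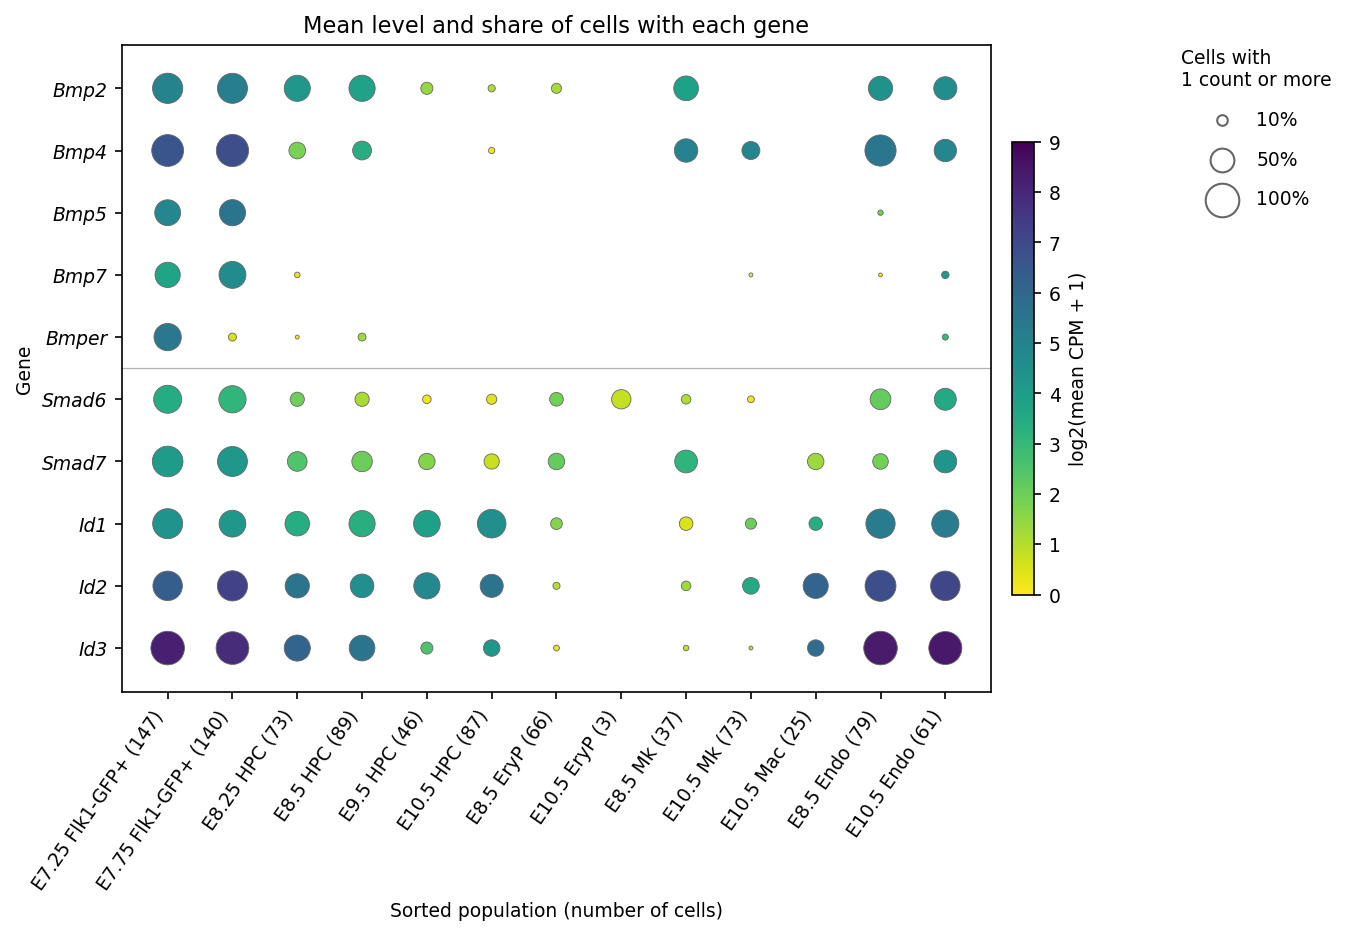
Levels of the 10 genes (rows) in the 13 populations (columns), where dot size is the percentage of positive cells and colour is log2 of the mean CPM + 1. *Bmp5* and *Bmp7* dots are large in E7.25 and E7.75 mesoderm alone (56.5% to 64.3% of cells), *Bmper* in E7.25 alone (66.0%), while *Id3* is large in mesoderm and in both Endo populations (95.0% to 100%).

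*Smad6* and *Smad7* encode the inhibitory Smads, SMAD6 acting mainly on BMP signals and SMAD7 on both BMP and TGF-beta signals. The stretch of the *Smad6* promoter at chr9:64022056-64022205 (GRCm38.p6, RefSeq, minus strand) is shown because, of the 6 members with a RefSeq promoter window, it alone held the palindromic Smad-binding motif GTCTAGAC, given in capitals. It runs from upstream of the annotated start to just inside the 5' untranslated exon.

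Smad6: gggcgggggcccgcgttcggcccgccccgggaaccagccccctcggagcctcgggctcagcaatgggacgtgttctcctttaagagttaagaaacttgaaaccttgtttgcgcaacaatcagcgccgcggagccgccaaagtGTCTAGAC

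The windows covered 250 bases before to 50 bases after each gene's start, were searched on both strands, and existed for *Id3*, *Bmper*, *Smad6*, *Bmp5*, *Id2* and *Bmp4*. GTCTAGAC was present in 0.213% of all 32851 windows. The shorter Smad motif CAGAC was in 49.6% of windows and, among the members, in those of *Bmp5* and *Id3*. These matches are descriptions of letters and not of binding.

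*Smad6* (chromosome 9, 63953076 to 64022059, minus strand) was found most often in mesoderm. Its share was 69.4% at E7.25 (mean 10.0 CPM, median 1.82, highest cell 419.3), 65.7% at E7.75 (7.73 CPM, median 1.37), 42.6% in E10.5 Endo (11.0 CPM, median 0) and 38.0% in E8.5 Endo (3.33 CPM, median 0). All HPC, EryP and Mk populations averaged between 0.135 and 2.97 CPM, and Mac had no count in 25 cells. E10.5 Endo and E7.25 mesoderm lay close by the mean, and the ranking between them turned with the scaling: divided by the cell total, E7.25 was the highest.

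*Smad7* (chromosome 18, plus strand) averaged 15.6 CPM at E7.25 (median 5.94, 83.0% positive) and 17.8 CPM at E7.75 (median 5.92, 79.3% positive). E10.5 Endo averaged 18.6 CPM with 45.9% positive cells and a median of 0, and 1 cell gave 58.0% of its counts. E8.5 Mk followed with 7.81 CPM (45.9% positive), E8.25 HPC with 4.55 CPM (34.2%), E8.5 EryP with 3.39 CPM (24.2%), E8.5 HPC with 3.04 CPM (37.1%) and E8.5 Endo with 2.78 CPM (21.5%). E9.5 HPC averaged 2.15 CPM and E10.5 HPC 0.701 CPM, and 6 of 25 Mac were positive. No *Smad7* count was found in 73 E10.5 Mk cells, of which 21 had *Bmp4*.

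The *Id* genes were found widely in mesoderm and endothelium and rarely in erythroid cells and megakaryocytes. For *Id2* the stretch at chr12:25096254-25096342 (GRCm38.p6, RefSeq, minus strand) is shown because it alone among the 6 member windows held the GC-rich Smad motif GGCGCC, in capitals. It lies upstream of the RefSeq start and within an intron of a longer annotated *Id2* transcript. That motif was present in 11.9% of all windows, and it does not overlap the other motifs searched.

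Id2: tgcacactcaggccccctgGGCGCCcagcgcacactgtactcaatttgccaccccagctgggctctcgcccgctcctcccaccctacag

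*Id3* (chromosome 4, 136143497 to 136145755, plus strand) was detected in every E7.25 cell and every E8.5 Endo cell. Its mean was 295.3 CPM at E7.25 (range 0.946 to 754.6, median 278.7), 235.7 CPM at E7.75 (range 0 to 1243, median 215.0), 323.5 CPM in E8.5 Endo (range 0.308 to 1396, median 267.4) and 338.3 CPM in E10.5 Endo (range 0 to 1046, median 242.6). Positive cells made up 95.0% of E7.75 and 96.7% of E10.5 Endo cells. The lower quartiles of E7.25 (192.5 CPM) and E8.5 Endo (136.1 CPM) lay above the upper quartile of the next blood population, E8.25 HPC (68.7 CPM). Those of E7.75 (47.1 CPM) and E10.5 Endo (56.4 CPM) lay below it.

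Among blood cells *Id3* had its highest mean in E8.25 HPC, followed by Mac and then E8.5 HPC. *Id3* averaged 69.3 CPM in E8.25 HPC (60.3% positive) and 45.6 CPM in E8.5 HPC (58.4%), then 4.75 CPM in E9.5 HPC (13.0%) and 18.0 CPM in E10.5 HPC (24.1%). Mac averaged 57.4 CPM, of which 1 cell gave 61.2% of the counts, with 6 of 25 cells positive. The Mac mean without the highest cell was 18.2 CPM. E8.5 EryP, E8.5 Mk and E10.5 Mk averaged 0.264, 0.693 and 0.739 CPM, from 2, 1 and 1 positive cells.

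*Id2* (chromosome 12, 25093799 to 25097140, minus strand) averaged 80.7 CPM at E7.25 (range 0 to 554.6, median 48.1, 76.9% positive) and 147.1 CPM at E7.75 (range 0 to 1457, median 53.7, 80.7% positive). E8.5 Endo averaged 112.3 CPM (range 0 to 668.1, median 80.1, 84.8% positive) and E10.5 Endo 135.4 CPM (range 0 to 865.7, median 11.9, 77.0% positive). By the mean E7.75 mesoderm was the highest, and by the median E8.5 Endo was.

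The remaining *Id2* was spread over progenitors and macrophages. Mac averaged 69.7 CPM (56.0% positive), E8.25 HPC 45.9 CPM (52.1%), E10.5 HPC 45.5 CPM (47.1%), E9.5 HPC 26.4 CPM (60.9%) and E8.5 HPC 22.4 CPM (49.4%). In Mac 1 cell gave 61.3% of the counts, and the mean without the highest cell was 34.5 CPM, below E8.25 and E10.5 HPC. E10.5 Mk averaged 10.8 CPM (24.7%), E8.5 Mk 1.43 CPM (8.11%) and E8.5 EryP 0.939 CPM (4.55%). Unlike *Id3*, *Id2* was found in similar shares of HPC at all 4 stages.

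*Id1* (chromosome 2, 152736251 to 152737410, plus strand) was highest in endothelium. E8.5 Endo averaged 38.3 CPM (range 0 to 212.3, median 22.9, 75.9% positive) and E10.5 Endo 37.3 CPM (range 0 to 327.6, median 6.70, 65.6% positive). E10.5 HPC came next with 22.4 CPM (72.4% positive), ahead of E7.25 with 19.5 CPM (79.6%), E7.75 with 17.2 CPM (63.6%) and E9.5 HPC with 14.0 CPM (63.0%). In E8.25 and E8.5 HPC the means were 9.71 and 9.12 CPM, with 53.4% and 60.7% positive cells. Mac averaged 9.81 CPM, E10.5 Mk 3.03 CPM, E8.5 EryP 2.22 CPM and E8.5 Mk 0.426 CPM. In Mac 4 of 25 cells were positive and 1 gave 70.0% of the counts, and the mean without the highest cell was 3.66 CPM.

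The 3 E10.5 EryP cells had no count of any member but *Smad6*, which had 3 counts in 1 cell.

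**Figure D2:**
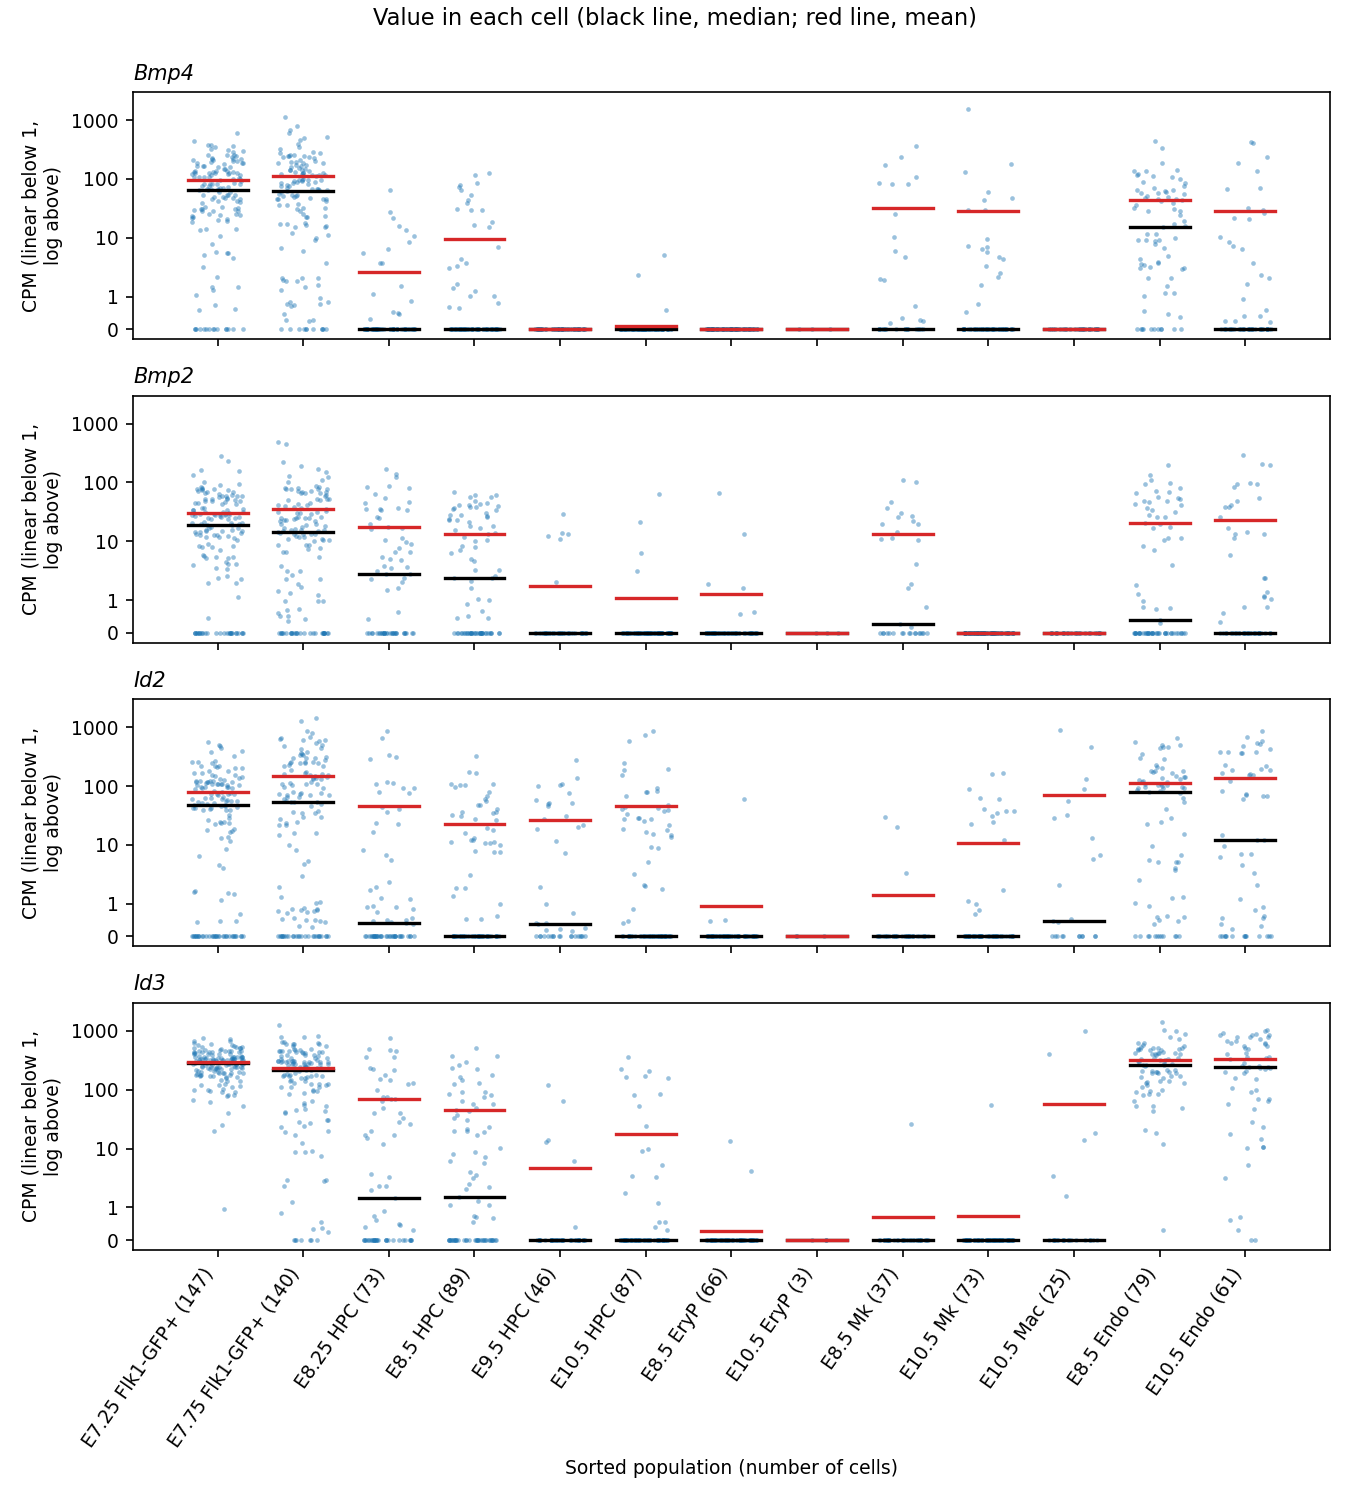
CPM of *Bmp4*, *Bmp2*, *Id2* and *Id3* in every cell of the 13 populations, on an axis that is linear below 1 and logarithmic above, with the median in black and the mean in red. In both Mk populations the *Bmp4* median is 0 while the means are 31.8 and 28.8 CPM, whereas for *Id3* the medians of mesoderm and Endo all lie between 215.0 and 278.7 CPM.

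Between genes, levels are compared per kilobase of exon. At E7.75 the order was *Id3* (131.6 CPM per kb), *Id2* (60.3), *Bmp4* (50.0), *Id1* (14.9), *Bmp5* (11.2), *Bmp2* (9.79), *Bmp7* (6.16), *Smad7* (3.95), *Smad6* (2.41) and *Bmper* (0.105). In E8.5 Endo the order began with *Id3* (180.6 CPM per kb), *Id2* (46.1), *Id1* (33.0) and *Bmp4* (19.3), and *Bmp5*, *Bmp7* and *Bmper* were each below 1 CPM per kb. *Bmp4* was the most abundant of the 4 ligands by this measure in both populations.

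Ligands and response genes were also counted per cell. At least 1 of the 4 ligands was found in 99.3% (96.3 to 100) of E7.25 and 97.9% (93.9 to 99.6) of E7.75 cells, 89.9% of E8.5 Endo, 70.5% of E10.5 Endo, 69.9% of E8.25 HPC, 73.0% of E8.5 HPC and 73.0% of E8.5 Mk. The share was 28.8% in E10.5 Mk, 13.0% in E9.5 HPC, 9.09% in E8.5 EryP, 8.05% in E10.5 HPC and 0% in Mac. These shares with a ligand were not matched for depth. The mean number of ligands per cell was 1.03 in E8.5 Mk, 0.921 in E8.5 HPC and 0.877 in E8.25 HPC. With cells thinned to the same count it was 0.838, 0.831 and 0.778. All 4 ligands were found together in 27.2% of E7.25 and 37.1% of E7.75 cells and in no cell of any other population. Cells with both a ligand and a response gene made up 99.3% of E7.25, 97.1% of E7.75, 89.9% of E8.5 Endo and 70.5% of E10.5 Endo cells. The share was 65.8% in E8.25 HPC, 68.5% in E8.5 HPC, 13.0% in E9.5 HPC and 8.05% in E10.5 HPC. These shares lay close to those with a ligand, but few cells of these populations lacked a response gene at all. Such cells made up 0% of E7.25 and of both Endo populations, 0.714% of E7.75 and 4.11% to 13.0% of the HPC populations. Cells with both made up 48.6% of E8.5 Mk, 6.85% of E10.5 Mk and 4.55% of E8.5 EryP, below the share with a ligand. Cells with no response gene made up 37.8%, 64.4% and 47.0% of these.

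All 5 response genes, the inhibitory Smad and *Id* genes, were found together in 41.5% of E7.25, 31.4% of E7.75, 11.4% of E8.5 Endo and 8.20% of E10.5 Endo cells. Cells with no *Id* gene made up 0% of both Endo populations and of E7.25, 1.43% of E7.75, 12.3% to 18.0% of the HPC populations and 36.0% of Mac. They made up 80.3% of E8.5 EryP, 73.0% of E8.5 Mk and 68.5% of E10.5 Mk. In E10.5 Mk, none of the 21 *Bmp4*-positive cells had *Id1* and 4 had *Id2*, where 8 and 18 of all 73 cells had them. In E8.5 Endo, 38 of 41 *Bmp2*-positive cells also had *Bmp4*, where 68 of all 79 cells had it.

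Population pairs were then compared as log2 ratios of mean CPM + 1, with 2-fold as the limit. The background was the 9104 genes that averaged at least 10 CPM over the populations. *Bmp2*, *Bmp4*, *Id1*, *Id2* and *Id3* passed that filter and the other 5 members did not, and all 10 are counted below.

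At E8.5, endothelium was set against HPC from the same stage, strain and flow cell. *Id3* was higher in Endo by 2.80, *Id2* by 2.28, *Bmp4* by 2.07 and *Id1* by 1.96 on the log2 scale. *Bmp2* differed by 0.61, *Smad6* by 0.93 and *Smad7* by -0.10. In all, 5 members were higher and 1 lower by 2-fold or more, where 14.4% of background genes were higher and 11.4% lower. The median log2 ratio was 1.39 over the members and -0.09 over the background. *Bmp5*, higher in Endo by at least 119.2-fold, and *Bmper*, higher in HPC by at least 66.3-fold, were set each by 1 cell. By medians over cells *Bmp2* turned, with a log2 ratio of -1.26. With genes at 0 in a population placed at their bound the members' median was 2.02.

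At E10.5, endothelium and HPC, again from the same stage, strain and flow cell, lay further apart. *Bmp4* was higher in Endo by 4.73, *Id3* by 4.16, *Smad7* by 3.53, *Bmp2* by 3.52, *Smad6* by 3.19 and *Id2* by 1.55 on the log2 scale, and *Id1* by 0.71. With *Bmp7* (at least 985.7-fold) and *Bmper* (at least 379.7-fold), each resting on 1 cell, 8 members were higher and 0 lower, where 23.6% of background genes were higher and 21.4% lower. The median log2 ratio was 3.35 over the members and -0.02 over the background, or 3.53 with genes at their bound and *Bmp5*, which had no count in either, left out. By medians over cells instead of means, 2 members were higher, and *Id1* turned to -0.22.

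E8.5 Endo was also set against E7.25 mesoderm, which shared its flow cell but not its *Flk1*-GFP allele, enzyme or gate. Of the ligands 3 of 4 were lower in Endo by 2-fold or more, as were *Bmper* and both inhibitory Smads, whereas *Bmp2* and the *Id* genes did not pass that limit. The log2 ratios were -1.14 for *Bmp4*, -3.04 for *Bmp5*, -3.60 for *Bmp7*, -1.35 for *Smad6* and -2.14 for *Smad7*, and *Bmper* was at least 1960-fold lower in Endo. *Bmp2* differed by -0.54, *Id3* by 0.13, *Id2* by 0.47 and *Id1* by 0.93. These made 0 members higher and 6 lower by 2-fold or more, where 18.4% of background genes were higher and 10.7% lower, and the median was -1.24 over the members against 0.00 over the background.

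Between the mesodermal stages, *Bmper* alone passed 2-fold, with a log2 ratio of E7.75 over E7.25 of -4.82. The other 9 members lay between -0.34 (*Smad6*) and 0.95 (*Bmp7*). The count of 0 higher and 1 lower stood where 4.59% of background genes were higher and 4.14% lower, with medians of 0.18 over the members and 0.05 over the background. *Bmp7* lay close to the limit, and leaving out 1 of the 4 chips in turn gave 0 to 2 members higher.

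Between the endothelial stages, which lay on different flow cells, the *Id* genes and *Bmp2* were nearly level by the mean. The log2 ratios of E10.5 over E8.5 were -0.03 for *Id1*, 0.27 for *Id2*, 0.06 for *Id3* and 0.14 for *Bmp2*, against 1.47 for *Smad6* and 2.38 for *Smad7*. By medians *Id2* fell from 80.1 to 11.9 CPM (-2.65) and *Id1* from 22.9 to 6.70 CPM (-1.63), while *Id3* gave -0.14 and *Bmp2* -0.49. Together 4 members were higher and 1 lower, where 15% of background genes were higher and 16.9% lower. *Bmp7* and *Bmper*, higher at E10.5, and *Bmp5*, lower, each rested on 1 cell, and without the 5% highest and 5% lowest cells 1 member was higher. The members' median was 0.20, against -0.05 over the background.

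**Figure D3:**
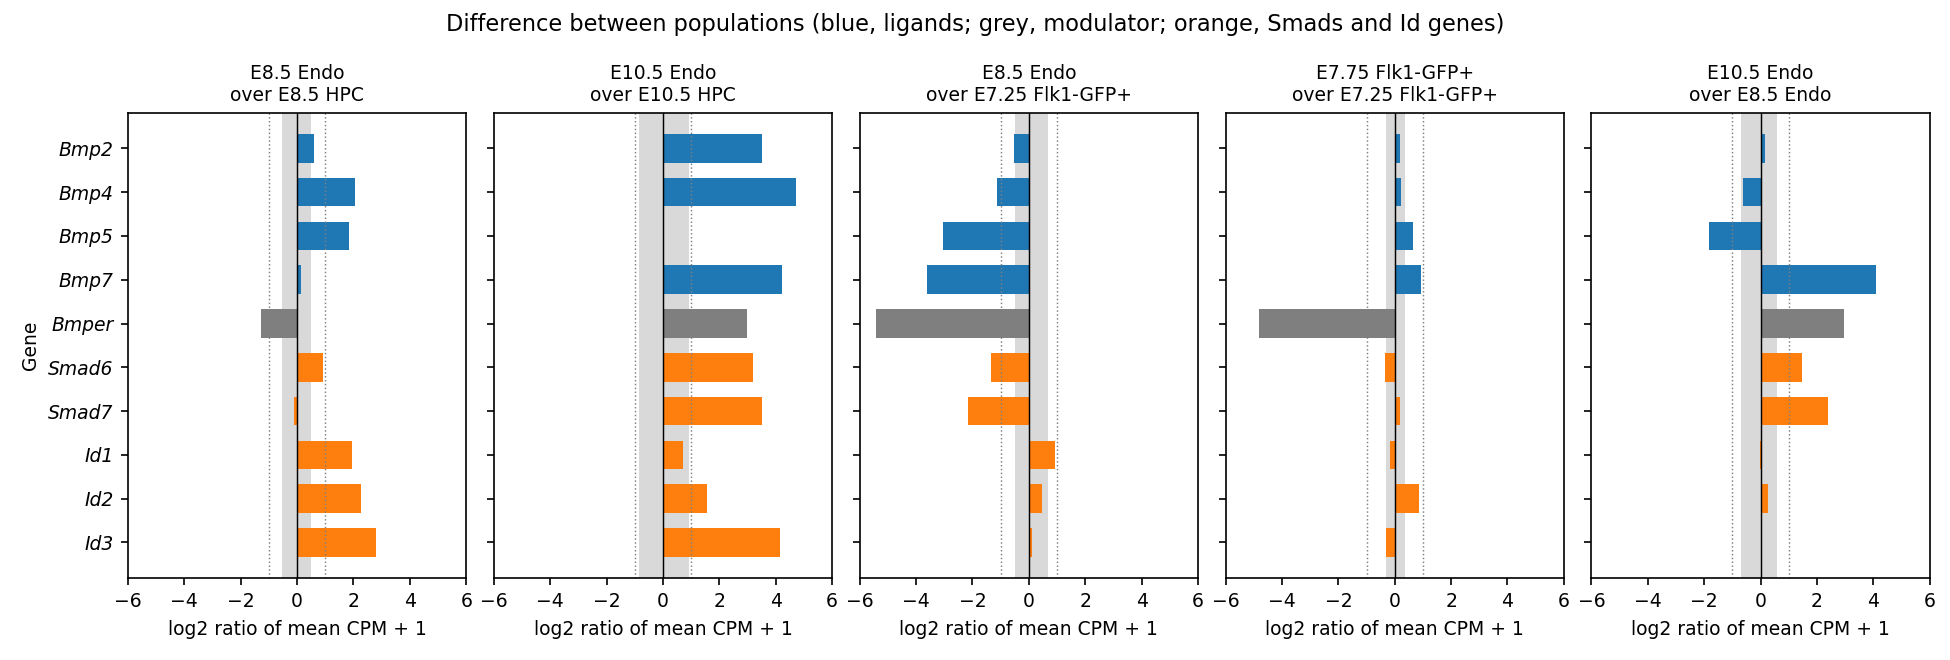
Log2 ratio of mean CPM + 1 for the 10 genes in 5 population pairs, drawn as bars from 0, with 2-fold marked by dotted lines and the middle 50% of 9104 background genes as a grey band. The 3 *Id* genes and *Bmp4* stand above the band in Endo over HPC at E8.5, and *Bmper* is the only bar past 2-fold in E7.75 over E7.25.

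Across all 13 populations, 6 members had their highest mean in mesoderm and 4 in endothelium, where 9.73% of background genes were highest in mesoderm and 22.6% in endothelium. The members *Bmp5*, *Bmp7*, *Bmper*, *Smad6* and *Smad7* lay below the level filter of the background, so members and background are unlike in level. The 4 ligands were highest in mesoderm by the mean, the median, the trimmed mean, division by the cell total and in all captured cells. *Id1* was highest in E8.5 Endo by each of these. For *Smad6*, *Smad7* and *Id3* the highest population moved between mesoderm and E10.5 Endo with the measure.

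Flk1-GFP+ mesoderm was split by haemato-endothelial genes to ask whether cells with blood and vessel factors differed in their BMP genes. A cell entered the haemato-endothelial class when it had counts of at least 4 of 6 genes, *Tal1*, *Lmo2*, *Kit*, *Gata2*, *Hhex* and *Fli1*. This is a range of detection and not a cell type. *Gata2* and *Hhex* are also on the list of BMP targets read below, and their part in the split was not tested. The class held 86 cells at E7.25, with 61 outside it, and 91 at E7.75, with 49 outside it. Cells beside the limit were many: 23 had 3 and 25 had 4 of the genes at E7.25, and 25 and 20 at E7.75. Median counts per cell were 1804860 in the class and 1848579 outside it at E7.25, and 1972765 and 2143729 at E7.75.

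At E7.75 *Bmp4* was lower in the class, with a mean of 69.4 CPM (median 31.6) against 192.0 CPM (median 128.4) in the other cells, a log2 ratio of -1.45. On the separate chips the class had 62.2 and 73.9 CPM and the other cells 146.6 and 218.4 CPM, so the class was lower on both. *Id2* was lower on both chips as well, with log2 ratios of -0.76 and -1.33. *Id3* gave -0.75 and -0.86. Over both chips *Bmp7* differed by -1.13, *Bmp5* by -0.87, *Id1* by -0.85 and *Smad6* and *Smad7* by -0.75 each. *Bmp2* differed by 0.25 and *Bmper*, which was rare at E7.75, by 0.005. On the separate chips *Bmp7* gave -0.51 and -1.58, *Smad6* -1.46 and -0.17 and *Smad7* -1.82 and -0.08. No share over all genes is given for this split.

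At E7.25 the means of the same genes, *Bmper* (-0.77 over both chips) left aside, differed less between the class and the other cells. *Bmp4* had medians of 65.8 and 71.2 CPM, while *Id2* averaged 72.0 and 93.1 CPM and *Id3* 282.5 and 313.4 CPM. The chips disagreed in direction for *Bmp4*, with log2 ratios of 0.25 and -0.17. *Bmp2* was the exception, with 39.8 CPM in the class and 17.4 CPM outside it, and log2 ratios of 1.11 and 1.06 on the chips. A ligand was nonetheless present in nearly every cell, in 100% of the class and 98.4% of the others at E7.25 and in 96.7% and 100% at E7.75.

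Other genes moved with this split at E7.75. The BMP receptor gene *Bmpr1a* had a log2 ratio of class over other cells of -1.14, the target *Msx1* of -1.11, and the contractile mesenchymal genes *Tagln* and *Acta2* of -1.28 and -0.98. The receptor gene *Bmpr2* gave -0.05 and the mesenchymal collagen gene *Col1a1* -0.13, and the chips differed in direction for both. Their part in the values of *Bmp4*, *Id2* and *Id3* was not tested.

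**Figure D4:**
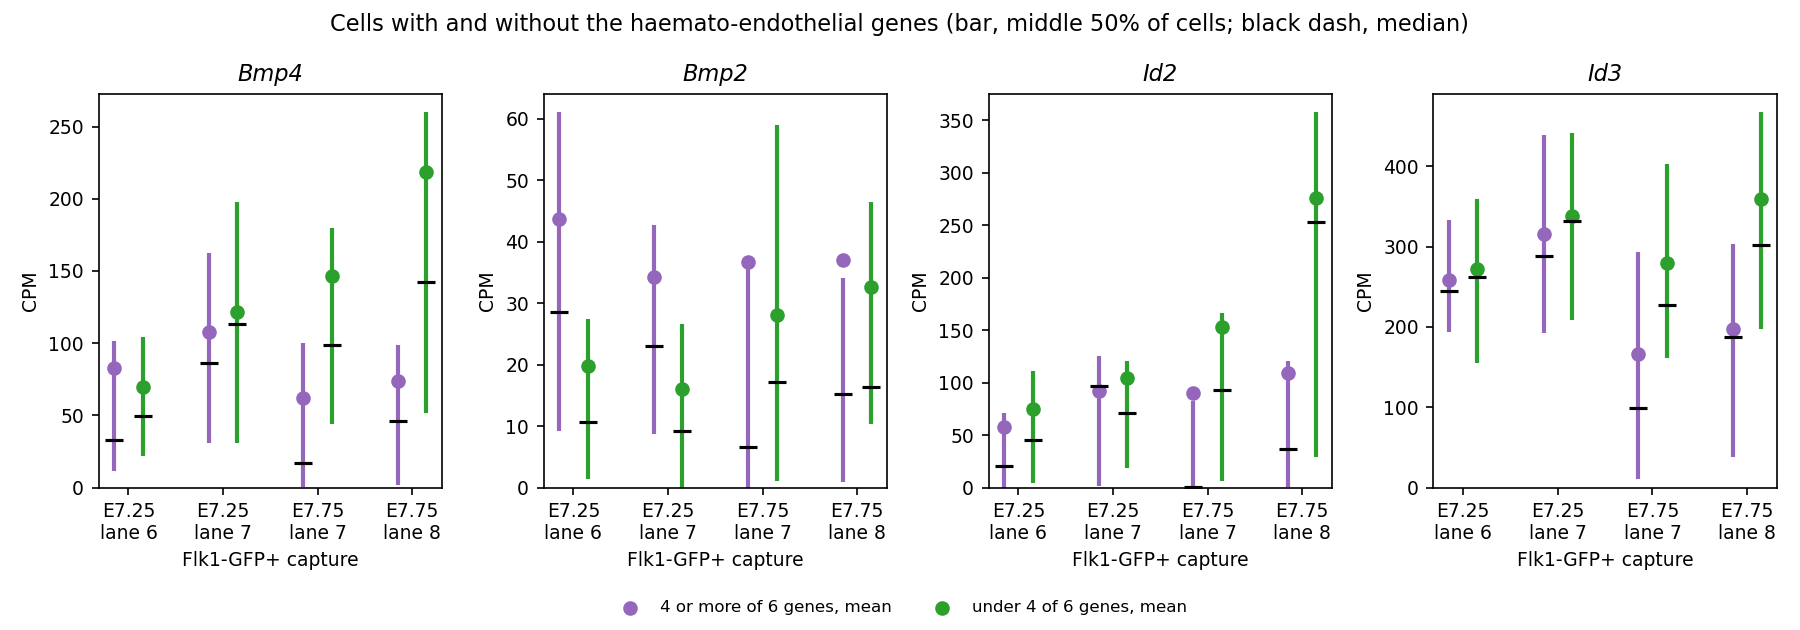
Mean (with median and the middle 50% of cells) of *Bmp4*, *Bmp2*, *Id2* and *Id3* in CPM in cells of the haemato-endothelial class and in the other Flk1-GFP+ cells, for each of the 4 chips. On both E7.75 chips *Bmp4* means are 62.2 and 73.9 CPM in the class against 146.6 and 218.4 CPM outside it, and on both E7.25 chips *Bmp2* is higher in the class.

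Within chips, the ranks of *Bmp4*, *Id2* and *Id3* were related across E7.75 cells. The ranks were taken over the class and the other cells together, and the means of all of these genes were lower in the class. The part of that difference in the values below was not tested. Spearman's rho of *Bmp4* with *Id3* was 0.62 over 53 cells of one chip and 0.35 over 87 cells of the other, with *Id2* 0.52 and 0.30, and with the BMP target *Msx2* 0.55 and 0.58. With *Id1* it was 0.25 on both chips. *Id2* and *Id3* gave 0.71 and 0.62. At E7.25, over 73 and 74 cells, *Bmp4* gave -0.16 and 0.23 with *Id1*, 0.17 and 0.04 with *Id3*, 0.19 and 0.33 with *Id2*, and 0.38 and 0.43 with *Msx2*. Cells of a chip shared a sequencing lane, and *Bmp4* had a rho of between -0.12 and 0.05 with the total count.

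In E8.5 endothelium the *Id* genes varied together and *Bmp4* did not vary with them. Over 79 E8.5 Endo cells, rho was 0.05 between *Bmp4* and *Id3*, 0.52 between *Id2* and *Id3* and 0.58 between *Id1* and *Id3*. Over 61 E10.5 Endo cells *Id2* and *Id3* gave 0.14. In the CDH5+ HPC, *Id3* had a rho of 0.39 over 73 cells at E8.25 and 0.47 over 89 cells at E8.5 with the summed level of the 5 endothelial markers. *Id3* in these progenitors was thus higher in cells with more endothelial marker RNA, and the part of endothelial cells within the gate in its HPC level was not tested.

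The rest of the pathway was read from a list of 66 genes, of which 50 were in the table, 40 beside the members. Unlike the background, these 40 were not filtered by level. For example, *Smad9*, *Fst*, *Chrdl1* and *Htra1* had a mean of 0 in both E8.5 Endo and E8.5 HPC. Against HPC, 18 of these 40 were higher and 2 lower in Endo by 2-fold or more at E8.5 (background 14.4% and 11.4%), and 27 higher and 4 lower at E10.5 (background 23.6% and 21.4%). Of 9 receptor and co-receptor genes, 7 were higher and 0 lower at E8.5 and 8 higher and 1 lower at E10.5. *Acvrl1*, an endothelial type I receptor, was higher by 3.69 and 4.78 on the log2 scale, and *Bmpr1a*, the general type I receptor, differed by 0.14 and -1.44. Against E7.25 mesoderm, 10 were higher and 16 lower in E8.5 Endo (background 18.4% and 10.7%), and E7.75 mesoderm had 2 higher and 8 lower than E7.25 (background 4.59% and 4.14%). E10.5 Endo had 16 higher and 4 lower than E8.5 Endo (background 15% and 16.9%).

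The other ligand genes in the table each peaked in a different population. *Bmp6* averaged 19.6 CPM in E8.5 Endo (48.1% of cells), 5.90 CPM at E7.25, and had no count in E10.5 Endo. *Bmp8a* averaged 20.2 CPM in E10.5 Mk (35.6% of cells) and at most 1.64 CPM elsewhere, but 1 cell gave 74.9% of its counts and the mean without it was 5.6 CPM. *Gdf6* averaged 14.7 CPM at E7.75 (40.0% of cells) and 5.72 CPM at E7.25, and outside mesoderm was found in 2 E8.5 Endo cells.

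Receptor genes had their highest means mostly in mesoderm and endothelium. The highest means were 160.5 CPM at E7.25 for *Bmpr1a*, 61.4 CPM at E7.25 for *Acvr2a*, 315.8 CPM in E10.5 Endo for the type II receptor *Bmpr2*, 155.6 CPM in E10.5 Endo for *Acvrl1*, 194.9 CPM in E10.5 Endo for the co-receptor endoglin (*Eng*), 69.4 CPM in E8.5 Endo for *Acvr1* and 121.2 CPM in Mac for the co-receptor *Rgmb*. A single Mac cell at 3002 CPM gave 94.5% of those *Rgmb* counts, and the mean without it was 1.15 CPM. The signal-carrying *Smad1* and *Smad4* peaked in E8.5 Endo at 75.5 and 87.0 CPM and *Smad5* in E10.5 Endo at 170.5 CPM.

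Among modulators, inhibitors and targets, *Fstl1* (2401 CPM), the BMP-1-like protease *Tll1* (90.7 CPM), the pseudoreceptor *Bambi* (57.1 CPM), *Smurf2* (106.4 CPM), *Ski* (69.7 CPM) and *Tmem100* (112.1 CPM) had their highest mean in E10.5 Endo. For *Tll1*, 1 cell gave 58.2% of the counts, and the mean without it was 25.7 CPM. *Twsg1* (55.5 CPM), *Skil* (340.8 CPM) and *Msx1* (53.6 CPM) had theirs at E7.25 and *Tbx20* (81.1 CPM) at E7.75. *Hhex* peaked in E8.5 Endo (203.5 CPM) and *Gata2* in E10.5 HPC (153.9 CPM). *Msx1*, a target like the *Id* genes, had a mean of 0.276 CPM in E8.5 Endo, where *Id3* averaged 323.5 CPM.

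The genes whose means were most alike to each member were sought over the 12 populations of more than 3 cells by Pearson's r of log2 mean CPM + 1. For *Bmp4* they were *Epha4* (0.94), *Plxna1* and *Amotl2* (both 0.93), for *Bmp2* *Slc12a2* (0.98), *Pxdn* (0.96) and *Sox11* (0.95), for *Bmp5* *Car4* (1.00), *Hand1* and *Phlda2* (both 0.99), and for *Bmp7* *Fendrr* (0.99), *Pdpn* (0.97) and *Pcsk5* (0.96). For *Bmper* they included *Tdgf1* (0.83) and *Pcsk5* (0.79), for *Smad6* *Mllt4* (0.97), *Tead1* (0.95) and *Egln1* (0.94), and for *Smad7* *Kansl1* (0.90), *E2f5* (0.89) and *Agrn* (0.87). For *Id1* they included *Pdlim2* (0.94) and *Fam102a* (0.92), for *Id2* *Patl1*, *Fndc3b* and *Myadm* (each 0.94), and for *Id3* *Lifr* (0.99), *Ccnd1* and *Nrp1* (both 0.97). Ranked by Spearman's rho instead, all 3 genes remained for *Bmp5*, 2 for *Bmp2*, 1 for *Smad6*, *Id1* and *Id2*, and 0 for the other members.

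Among the members themselves, the *Id* genes gave over the 12 populations an r of 0.91 for *Id1* and *Id2*, 0.91 for *Id2* and *Id3* and 0.84 for *Id1* and *Id3*. *Smad6* and *Smad7* gave 0.87, *Bmp5* and *Bmp7* 0.73 and *Bmp2* and *Bmp4* 0.70. Between the groups, *Bmp4* gave 0.14 with *Id1*, 0.29 with *Id2* and 0.44 with *Id3*, and *Bmp2* gave 0.35 with *Id1*. *Bmp2* gave 0.84 with *Smad7* and 0.82 with *Smad6*, and *Bmp7* gave 0.83 with *Smad6* and 0.82 with *Smad7*. These values describe 12 points that share libraries and scaling within each chip.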

How the data were processed

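Cells from 13 sorted mouse yolk sac populations were captured on Fluidigm C1 chips and sequenced as paired-end 100-base reads (HiSeq). Per the study's methods, the authors aligned reads with Rsubread to the mouse genome (Ensembl 84, GRCm38), counted genes with featureCounts, filtered cells and genes with scater, and normalised with scran size factors. Tool versions are not given in the sources used here. The authors deposited a table of raw read counts for 1073 cells and a normalised signal table (CPM, depth-scaled read counts) for 926 cells, whose columns sum to between 699615 and 4176737 per cell. The counts hold no molecular identifiers. All 96 index pairs recur in several lanes, and no 2 cells had identical values. Doublets were not called here, and the authors inspected the capture sites.

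Means, quartiles, shares with exact 95% intervals and log2 ratios (pseudocount 1) were computed with Python 3.11.15, numpy 2.4.6, pandas 2.3.3 and scipy 1.17.1, and plotted with matplotlib 3.10.9. A count of 0 was bounded by 3 counts. The background was formed by genes averaging at least 10 CPM. The scripts were tested on simulated data. Alternatives were division by cell totals, medians, trimmed means, a pseudocount of 10, a limit of 4-fold, detection at 10 counts, thinning to 840000 counts (46 cells left out), all captured cells, other class limits, no filter on low values, and leaving out each chip. Means without the highest cell, given for some of the named genes where 1 cell gave over 50% of the counts, were added after seeing the data.

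The members, the pathway, class and marker lists and the comparisons were chosen with earlier results of these data known. Named were all members, every pathway gene with a mean of 50 CPM or more in a population of over 3 cells, every listed ligand in the table, and the 3 genes most alike to each member, of which 1 each for *Bmper* and *Id1* is not reported here. *Hba-x*, *Pf4*, *Msx2*, *Tagln*, *Acta2* and *Col1a1* were named after their values were seen. In the table were 7 of 12 listed ligands, 9 of 11 receptors, 4 of 4 signal-carrying Smads, 10 of 18 modulators, 9 of 9 inhibitors and 11 of 12 targets. Gene positions were from GENCODE M21 and promoter sequences from RefSeq (GRCm38.p6).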

Additional observations from a re-analysis of the deposited data

Results flagged for a closer look

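For 2 members the ratio of Endo to HPC had opposite signs at E8.5 and E10.5. The log2 ratio of *Bmper* was -1.27 at E8.5 and 2.97 at E10.5, and 1 cell gave 98.7% of the counts in E8.5 HPC and 1 cell 99.9% in E10.5 Endo. The log2 ratio of *Smad7* was -0.10 at E8.5 and 3.53 at E10.5, and 1 cell gave 58.0% of the *Smad7* counts of E10.5 Endo. These differences between stages were not tested, and the HPC gate and the flow cell differed between the stages too. Listed ligands that are absent from the filtered table had reads in the unfiltered counts: *Bmp8b* in 2.14% of E7.75 cells (3 of 140) and *Gdf2*, which encodes the endothelial ligand BMP9, in 9.29% (13 of 140).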

How the results depend on the processing

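No paired analysis was possible because no test was run and no replicate number links one population to another. No value past 2-fold changed sign. By medians 8 values within it did, *Id3* (-0.06) for E8.5 Endo over E7.25, *Bmp2* (-0.39) and *Bmp4* (-0.06) for E7.75 over E7.25, *Bmp2* (-1.26) for E8.5 Endo over HPC, *Id1* (-0.22) for E10.5 Endo over HPC, and *Id2* (-2.65), *Id3* (-0.14) and *Bmp2* (-0.49) for E10.5 over E8.5 Endo, where *Id1* gave -1.63. Under the other alternatives 21 ratios turned, with neither value past 2-fold. The number of ligands highest in mesoderm was 4 under every scaling tried. The mean number of response genes per cell stayed within the standard deviation between cells in all 39 repeats. That limit is wide beside a mean, so it does not show how far the means moved. The number of response genes highest in Endo was 4 by the mean CPM, 2 with division by the cell total, 2 by medians and 1 in all captured cells. The median log2 ratio of the members for Endo over HPC moved at E8.5 to 0 by medians and 0.37 with a pseudocount of 10, and at E10.5 to 0 by medians, 2.53 with trimmed means and 1.40 with a pseudocount of 10. At E8.5, 3 members were higher past 4-fold, and 0 were lower with trimmed means, a pseudocount of 10 or a 4-fold limit. At E10.5, 2 were higher by medians. For E7.75 over E7.25, 1 was higher in all captured cells and 2 were lower by medians, and leaving out each chip gave 0 to 2 higher, with 2 when E7.25 lane 7 was left out and 1 without either E7.75 chip. For E10.5 over E8.5 Endo, the higher count was 0 by medians, 1 with trimmed means and 2 with a pseudocount of 10, and the lower count was 3 by medians, 0 with a pseudocount of 10 and 0 past 4-fold. A ligand was found in 100% of cells outside the class at E7.25 with the class set at 3 genes, and in 95.7% to 100% when a chip was left out, and in 81.3% of class cells at E7.75 at 10 counts and 89.6% after thinning. Of the shares of cells recomputed, 326 stayed and 64 moved, 58 of them at 10 counts and 6 after thinning, and the cause was not tested. For *Bmp4* in E8.5 Mk the share was 48.6%, against 35.1% after thinning and 29.7% at 10 counts. *Bmper* at E7.25 averaged 140.9 CPM in all captured cells and 42.4 CPM without 1 cell of 15520 CPM that the authors' filter had removed. The main limits are 1 sample per population, 3 E10.5 EryP cells, means set by a few cells, and flow cells shared with stage.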

Other observations

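Among listed genes left out of the filtered table, the antagonist *Nog* had reads in the unfiltered counts of 11.6% of E7.25 and 15.7% of E7.75 cells, and in 1 E9.5 HPC and 1 E10.5 Endo cell besides. The co-receptor *Rgma* had reads in 19.7% of E7.25 and 9.29% of E7.75 cells and in 5.06% of E8.5 Endo cells. *Chrd* had reads in 1 E7.25 cell and in no other cell of the 13 populations. *Bmp3*, *Bmp10* and *Gdf5* had no reads in any of the retained cells.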
